A study of Mus musculus with 12 samples.

Results

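The 6 receptor genes described here form the brain-specific angiogenesis inhibitor (BAI) and latrophilin subfamilies of the adhesion G protein-coupled receptors. They were measured in the hypothalamus of mouse pups at postnatal day 6, among the 43280 genes of the deposited count table, where they carry their older names Bai1, Bai2, Bai3, Lphn1, Lphn2 and Lphn3 (now Adgrb1, Adgrb2, Adgrb3, Adgrl1, Adgrl2 and Adgrl3). The family was chosen by the measured values of these libraries, because Bai1 had one of the smallest p-values of the whole table. The difference of Bai1 between the groups is therefore given as a description, with no test. The members themselves were taken by name, all 6 were in the table, and all 6 passed the filter on low counts that left 13104 genes for testing.

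All pups were males of the C57/Bl6 strain with no further treatment or transgene. In modified maternal separation (MMS) pups spent part of the afternoon away from the dam, warmed and under repeated handling into a supine posture. Sessions ran on consecutive days, and the tissue was taken directly after the last one on postnatal day 6. Control pups were not separated, and each litter gave males to both groups. Each group held 6 pups with 1 library per pup, prepared with a 3′ mRNA kit that reads the transcript end beside the poly(A) tail. The comparison asks which transcripts differ straight after this early stress. The labels do not tie libraries to litters, so pups were treated as independent and littermates could not be paired.

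Adhesion G protein-coupled receptors carry a long extracellular region that binds proteins on other cells or in the matrix, joined to a membrane-spanning region that signals through G proteins. Most are cleaved during maturation, within a domain that lies just outside the membrane, and the parts stay attached. Latrophilins were found as neuronal receptors of alpha-latrotoxin, the toxin of the black widow spider. They bind teneurins and FLRT proteins across the synaptic cleft and help to set up synapses. BAI receptors are abundant in brain. BAI1 acts in the uptake of dying cells through the adaptor ELMO and the exchange factor DOCK, and also at excitatory synapses, where Nogo receptors bind it. BAI3 binds the C1q-like proteins, which are secreted by neurons.

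The libraries held between 3218777 and 6560620 counts, and the total did not differ between the groups beyond the spread of the pups (exact permutation test, two-sided p = 0.173). A pair of libraries, MMS 2 and MMS 4, lay away from the remaining 10. On the first principal component, which held 30.4% of the variance, they lay at 57.8 and 46.3 and the others between -14.4 and -3.04. The summed level of 7 neuronal markers was 6016 CPM (counts scaled to a common library size) in MMS 2 and 6270 CPM in MMS 4, and 7681 to 8637 CPM in the controls. This gap was that of Tubb3, a neuronal tubulin, which had 1280 and 1307 CPM in the pair and 3001 to 3461 CPM in the controls. Tubb3 had 2069 to 3182 CPM in the other MMS libraries, and 4 of 6 MMS pups lay below all controls. The other 6 neuronal markers summed to 4735 and 4964 CPM in the pair, within the 4617 to 5176 CPM of the controls. The summed level of 7 ependymal markers was 14.5 and 36.0 CPM in the same pair, and 78.1 to 183 CPM in the controls. Of the 7 astrocyte markers the sum was 2329 and 2336 CPM in the pair, and 1650 to 2023 CPM in the controls. Markers of choroid plexus, among them transthyretin, summed to 1764 CPM in Control 3, and 10.3 CPM in the control with the lowest sum. No defining marker was at 0. In the test across all genes no gene passed an adjusted p of 0.05 (0% of 13104 genes, edgeR quasi-likelihood test), and 1190 genes had an unadjusted p under 0.05, of which 613 were higher in MMS (4.68%) and 577 were lower (4.4%).

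In the levels over all 12 libraries, Lphn1 stood far above the other members. Reads of a 3′ kit count transcripts with no term for gene length, so levels in CPM are set side by side between genes here. The base composition of the transcripts and overlapping genes, both given below, were not corrected for. Lphn1 had 735 ± 117 CPM (SD, n = 12), and 98.9% of the genes tested lay below it. It is the most widely expressed of the latrophilins in brain. Lphn3 followed with 130 ± 14.9 CPM. Bai1 had 102 ± 24.6 CPM, Bai2 98.0 ± 9.40 CPM and Bai3 96.4 ± 10.2 CPM. Lphn2 was lowest with 73.6 ± 14.4 CPM, a level that was still above 77.3% of the genes tested. Each level rested on 163 to 4176 counts per library.

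**Figure D1:**
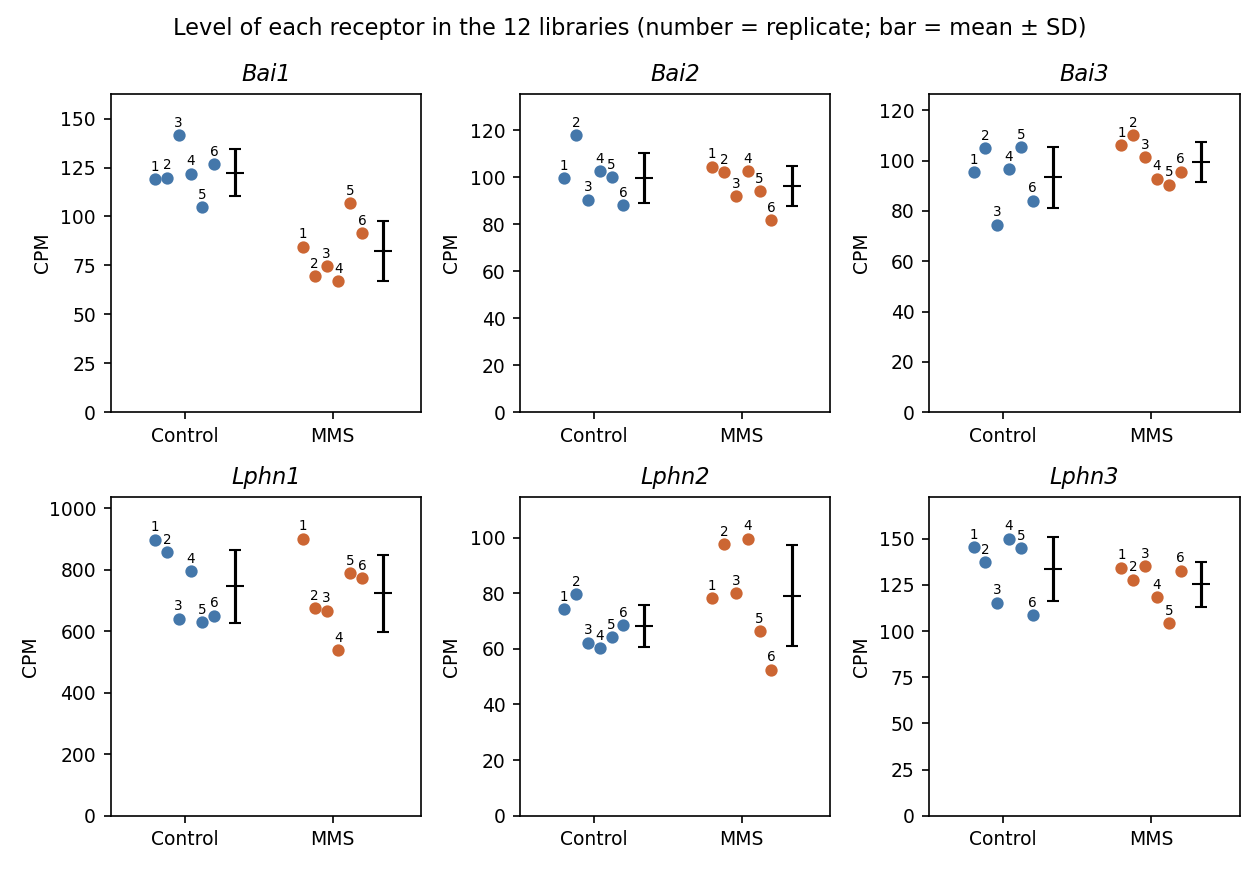
Level of each receptor in every library, in CPM, with controls and MMS pups as separate points and a bar at each group mean with its SD (n = 6). Lphn1 lies above all other members in every library, and the Bai1 points of 5 of the 6 MMS pups lie below all 6 controls.

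The members were ranked by their mean level over these same 12 libraries. The order of neighbours was then tested within libraries, as the difference in log2 CPM between a gene and the next one. An exact sign-flip permutation test (two-sided) was adjusted over the 5 neighbouring pairs, those with Bai1 included. Lphn1 was above Lphn3 by 2.49 (SD 0.23, n = 12) on the log2 scale, a 5.63-fold difference, in 12 of 12 libraries (adjusted p = 0.00244 by the exact test). The unadjusted p of 0.000488 is the smallest that 12 libraries can give. Bai3 was above Lphn2 by 0.40 (SD 0.26) in 11 of 12 libraries (adjusted p = 0.00244 by the exact test).

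Bai2 and Bai3 did not differ in level beyond their spread, with a log2 difference of 0.024 (adjusted p = 0.707 by the exact permutation test). The place of Bai1 is given by group and with no test, since a value over all 12 libraries would mix in the group difference by which the family was chosen. In the controls it was 0.12 below Lphn3 and 0.29 above Bai2, the latter in 6 of 6 libraries. In the MMS pups it was 0.62 below Lphn3 and 0.24 below Bai2 (a difference of -0.24 from Bai1 to Bai2, with Bai1 higher in 2 of 6 libraries). With 6 libraries the smallest p the sign-flip test can give is 0.03125. After adjustment no pair of neighbours without Bai1 passed the threshold within 1 group. For Lphn1 over Lphn3 and for Bai3 over Lphn2 the adjusted p of this test was 0.0521 in controls and 0.104 in MMS.

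The promoters of the members differ in base composition, and those of the most and the least abundant member and of Bai2 are shown here for that contrast. Windows of 300 bases, from 250 before to 50 after a transcription start, come from RefSeq on the build GRCm38.p6, which has the coordinates of mm10. They were found for 5 members, as 7 windows in all, of which 3 belong to Lphn3. Capitals mark CpG dinucleotides, and the sequences are written 5′ to 3′ along the strand of the gene. The Lphn1 window is at chr8:83899848-83900147 on the plus strand, the Bai2 window at chr4:129984620-129984919 on the plus strand, and the Lphn2 window at chr3:148954586-148954885 on the minus strand. The last of these lies inside the GENCODE M21 model of Lphn2, which starts farther upstream.
Lphn1: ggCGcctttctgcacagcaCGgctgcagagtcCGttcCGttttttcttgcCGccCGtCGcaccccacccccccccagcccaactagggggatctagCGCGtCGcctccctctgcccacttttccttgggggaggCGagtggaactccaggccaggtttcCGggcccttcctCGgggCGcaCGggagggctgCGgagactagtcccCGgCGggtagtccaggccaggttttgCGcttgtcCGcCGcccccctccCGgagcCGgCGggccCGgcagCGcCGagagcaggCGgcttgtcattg
Bai2: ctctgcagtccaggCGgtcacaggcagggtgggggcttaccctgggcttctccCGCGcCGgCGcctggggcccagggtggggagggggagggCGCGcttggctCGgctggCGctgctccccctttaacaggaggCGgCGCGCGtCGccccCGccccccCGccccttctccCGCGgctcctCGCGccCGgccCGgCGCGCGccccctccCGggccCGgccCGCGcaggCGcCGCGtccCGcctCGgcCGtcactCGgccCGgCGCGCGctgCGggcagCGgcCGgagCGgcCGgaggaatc
Lphn2: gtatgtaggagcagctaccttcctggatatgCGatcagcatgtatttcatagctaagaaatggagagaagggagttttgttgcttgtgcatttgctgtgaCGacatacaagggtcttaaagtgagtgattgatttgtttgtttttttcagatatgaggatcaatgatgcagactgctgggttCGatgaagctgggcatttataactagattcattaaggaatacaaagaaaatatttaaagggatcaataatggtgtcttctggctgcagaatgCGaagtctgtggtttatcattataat
The Lphn1 window held 28 CpG dinucleotides and 70.0% G or C bases, and 85.8% of all 32851 RefSeq promoter windows of this length held fewer CpG. In the Bai2 window the numbers were 45 CpG and 81.7%, with 98.1% of windows holding fewer. The Lphn2 window held 4 CpG and 38.0% G or C, below the median of 7 CpG over all windows. The Bai3 window (chr1:25829658-25829957, minus strand) held 16 CpG. The 3 Lphn3 windows held 40, 21 and 20 CpG.

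Motifs were searched on both strands of the 7 windows. The GC box GGGCGG was found in all windows other than that of Lphn2, against 35.7% of all promoter windows. The TATA box TATAAA was found in the Lphn2 window and in 1 of the 3 Lphn3 windows, and in 13.6% of all windows. The CCAAT box was found in the Bai3 window alone, and in 37.4% of all windows. Neither the cAMP response element TGACGTCA nor the NGFI-B response element AAAGGTCA was found in any of the 7, where 1.79% and 1.51% of all windows held them. A match describes the letters of the window and is not a measured site.

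Bai1 lies on mm10 at chr15:74516195-74589465 on the plus strand, and its longest coding transcript has 31 exons. In the controls its lowest level was 105 CPM, the median 121 CPM and the highest 142 CPM. In the MMS pups the lowest was 66.9 CPM, the median 79.5 CPM and the highest 107 CPM. The libraries of the groups overlapped only through MMS 5, the highest of the MMS pups, which lay above Control 5, the lowest control. The other 5 MMS pups lay below all 6 controls, a pattern shown by 1.56% of the genes tested (at least 5 of 6 MMS libraries below all controls). The mean was 122 ± 11.96 CPM over the controls and 82.3 ± 15.2 CPM over the MMS pups (SD, n = 6 each), and the fitted log2 difference was -0.57 (SE 0.12). These are the values by which the family was picked.

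The low Bai1 levels were not confined to MMS 2 and MMS 4. Those libraries had 69.6 and 66.9 CPM, the latter the lowest of all 12, but MMS 3 lay between the controls and them with 74.5 CPM and MMS 1 had 84.5 CPM. Without MMS 2 and MMS 4 the log2 difference was -0.44. The highest control was Control 3, which also held the choroid plexus transcripts, and without it the difference was -0.52. Some markers of cell types also lay lower in the MMS group. All 7 ependymal markers had a log2 difference below 0, with a median of -0.78, and their sum ran from 78.1 to 183 CPM over the controls and from 14.5 to 179 CPM over the MMS pups. The 5 endothelial markers summed to 88.3 to 107 CPM over the controls and 64.5 to 103 CPM over the MMS pups. Of these, 2 were higher and 3 lower in MMS, with a median log2 difference of -0.11. Cldn5, a tight junction protein chosen after its values were seen, had a log2 difference of -0.60 (SE 0.15) with 5 of 6 MMS pups below all controls. Of the 7 neuronal markers 4 were higher and 3 lower in MMS, with Tubb3 among the lower. The part of these markers in the Bai1 value was not tested. In whole tissue, fewer cells of a type and less RNA per cell cannot be told apart.

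Neither of the other BAI receptors passed the test. Bai2 lies at chr4:129984870-130022633 on the plus strand. Its lowest, median and highest levels were 88.1, 99.7 and 118 CPM in controls and 81.8, 98.1 and 104 CPM in MMS. The ranges overlapped over most of their width. The log2 difference was -0.049 (SE 0.10, 95% interval -0.26 to 0.16, adjusted p = 0.889, edgeR).

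Bai3, at chr1:25067476-25829707 on the minus strand, is the receptor of the C1q-like proteins. Its levels were 74.5, 95.9 and 105 CPM in controls (lowest, median, highest) and 90.4, 98.5 and 110 CPM in MMS. The lowest library was Control 3, and the groups overlapped from 90.4 to 105 CPM. The log2 difference was 0.089 (SE 0.11, 95% interval -0.13 to 0.31, adjusted p = 0.794, edgeR).

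Lphn1, at chr8:83900105-83941954 on the plus strand, had 631, 723 and 899 CPM in controls and 539, 724 and 902 CPM in MMS (lowest, median, highest). Its medians were nearly the same, and both groups held libraries near 900 CPM. The lowest library was MMS 4. The log2 difference was -0.043 (SE 0.12, 95% interval -0.30 to 0.21, adjusted p = 0.919, edgeR). It turned to 0.074 without MMS 2 and MMS 4 and to 0.037 without MMS 4 alone, and was -0.016 without MMS 2 alone. Without Control 1 it was 0.018 and without Control 2 0.0016, so its direction was not stable.

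Lphn2, at chr3:148815583-148990555 on the minus strand, had the widest spread of the members in MMS. Its levels were 60.3, 66.4 and 79.6 CPM in controls and 52.5, 79.1 and 99.7 CPM in MMS. Of the MMS libraries 3 lay above all controls, MMS 2 and MMS 4 highest among them, and MMS 6 lay below all controls. How many of all genes show such a pattern was not counted. The coefficient of variation was 10.98% in controls and 22.9% in MMS. The log2 difference was 0.22 (SE 0.14, 95% interval -0.066 to 0.50, adjusted p = 0.612, edgeR). It rose to 0.31 without MMS 6 (unadjusted p = 0.0212, adjusted p = 0.378, edgeR) and came to 0.032 without MMS 2 and MMS 4. Tubb3 and the ependymal and astrocyte sums also differed in this pair of libraries, as given above, while the other 6 neuronal markers did not leave the range of the controls. The part of these markers in the Lphn2 value was not tested.

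Lphn3, at chr5:81020138-81825133 on the plus strand, binds FLRT3 and teneurins and is known from studies of attention deficit and hyperactivity disorder. Its levels were 108, 141 and 150 CPM in controls and 104, 130 and 135 CPM in MMS. In the controls 4 libraries lay above all MMS pups, and Control 3 and Control 6 lay within the MMS range. The share of all genes with such a pattern was not counted, so the pattern is a description only. The log2 difference was -0.092 (SE 0.11, 95% interval -0.32 to 0.13, adjusted p = 0.788, edgeR). Of the 5 members other than Bai1, none passed the threshold in the fit of all 12 libraries. None had an unadjusted p under 0.05 in that fit, where 4.68% of genes were so called higher and 4.4% lower. The 5 intervals reach from -0.32 to 0.50 on the log2 scale, so equal levels are not shown.

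**Figure D2:**
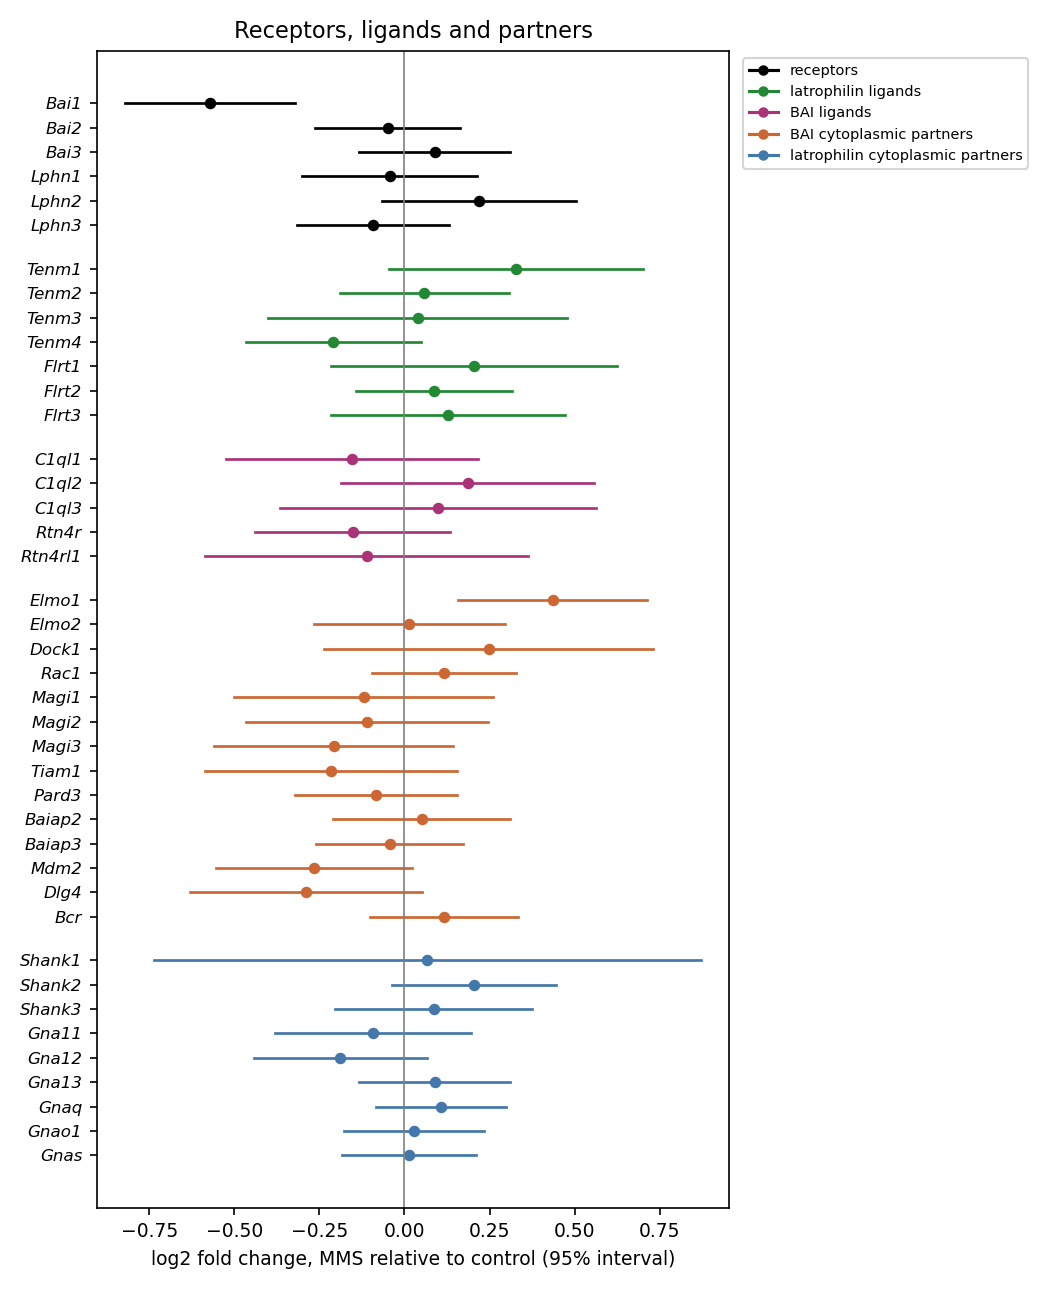
Log2 fold change of MMS over control for the 6 receptors, their ligands and their cytoplasmic partners, with 95% intervals from the edgeR fit. The value of Bai1, -0.57, was used to pick the family and its interval is no test, while the intervals of the other 5 receptors cross 0.

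The balance within the BAI receptors followed from the Bai1 values and is given without a test. Bai1 held 38.9 ± 4.66% of the counts of the 3 BAI genes in controls, with libraries from 33.8% to 46.2%. In MMS it held 29.6 ± 4.79%, from 24.7% to 36.7%. The summed level of the 3 genes was 315 ± 15.2 CPM in controls and 278 ± 13.5 CPM in MMS, and the lowest control, 299 CPM, lay above the highest MMS pup, 295 CPM. No library of one group lay within the range of the other in this sum. The sum holds Bai1, by whose difference the family was picked, so this separation is not a result of its own.

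Among the latrophilins, Lphn1 held 78.5 ± 1.85% of their counts in controls and 77.6 ± 4.32% in MMS. Lphn2 held 7.26 ± 0.811% in controls and 8.75 ± 2.87% in MMS, with MMS libraries from 5.48% to 13.2%. The summed level of the 3 genes was 948 ± 135 CPM in controls and 929 ± 117 CPM in MMS. All 6 receptors together held 0.125% of the counts of a control library and 0.121% of those of an MMS library.

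The latrophilin ligands are the teneurins, large proteins that span the membrane once, and the FLRT proteins, which have leucine-rich repeats. All 7 passed the filter. In MMS 6 were higher and 1 was lower, none with an unadjusted p under 0.05, and their median log2 difference was 0.087 where that of all genes was 0.00091. Without MMS 2 and MMS 4 the median of the list turned to -0.045, and with 1 surrogate variable to -0.11. The teneurin Tenm1 had 77.5 ± 15.8 CPM in controls and 97.0 ± 31.0 CPM in MMS, a log2 difference of 0.33 (SE 0.18, adjusted p = 0.574, edgeR). Tenm4 was the lower gene, with 181 ± 27.96 CPM and 157 ± 27.0 CPM and a log2 difference of -0.21 (SE 0.12, adjusted p = 0.596, edgeR). Both differences were within the spread of the pups. Tenm2, chosen after its values were seen as the most abundant gene of the list, had 268 ± 39.0 CPM in controls and 279 ± 45.2 CPM in MMS.

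Of the 7 BAI ligands, the C1q-like proteins and the Nogo receptors, 5 passed the filter. C1ql4 had 4 counts over all libraries and Rtn4rl2 had 0. Of the 5, 2 were higher and 3 lower in MMS, none with an unadjusted p under 0.05, with a median of -0.11. The direction of that median was not stable, since it was 0.042 without Control 1, -0.0054 without MMS 3 and 0.011 with no count filter. C1ql2 had a log2 difference of 0.19 (SE 0.18) and C1ql1, which is made by climbing fibre neurons of the inferior olive among others, one of -0.16 (SE 0.18). Neither stood out of the spread of the pups (adjusted p = 0.742 and adjusted p = 0.786, edgeR).

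The cytoplasmic partners of the BAI receptors include the ELMO and DOCK proteins of the engulfment pathway, the Rac exchange factor Tiam1, the MAGI scaffolds and Dlg4, the postsynaptic scaffold PSD-95. Of 15 listed, 14 passed the filter, with 6 higher and 8 lower and a median log2 difference of -0.063, which lay from -0.093 to -0.013 when 1 library was left out. Elmo1, the adaptor that links BAI1 to DOCK and so to Rac, was the 1 member with an unadjusted p under 0.05. Its level was 43.2 ± 7.58 CPM in controls and 58.3 ± 8.77 CPM in MMS, a log2 difference of 0.44 (SE 0.13), with 3 MMS pups above all controls. It did not pass the adjustment over all genes (adjusted p = 0.518, edgeR). One such gene among 14 compares with 4.68% of all genes called higher at that threshold.

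The latrophilin partners in the cytoplasm are SHANK scaffolds and G protein alpha subunits. All 9 were tested, 7 were higher and 2 lower, and none had an unadjusted p under 0.05. Shank2, a scaffold of excitatory synapses, had a log2 difference of 0.20 (SE 0.12, adjusted p = 0.584, edgeR). Gna12, a G protein alpha subunit, had one of -0.19 (SE 0.12, adjusted p = 0.620, edgeR). The median of the list was 0.066, and it lay from 0.00046 (without MMS 1) to 0.097 (without Control 2) when 1 library was left out.

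Of 23 adhesion receptors outside these subfamilies, 13 passed the filter, 5 higher and 8 lower, and none had an unadjusted p under 0.05. Their median log2 difference was -0.090, which turned to 0.024 without MMS 2 and MMS 4. Adgre1 (Emr1), the macrophage antigen F4/80, had 6.84 ± 2.26 CPM in controls and 9.40 ± 2.39 CPM in MMS, with a log2 difference of 0.45 (SE 0.24, adjusted p = 0.571, edgeR). Celsr1, a planar polarity cadherin, had 7.89 ± 2.99 and 6.38 ± 2.29 CPM and a log2 difference of -0.31 (SE 0.29, adjusted p = 0.728, edgeR). Both were far less abundant than the BAI and latrophilin members. Celsr2, chosen after its values were seen, had 61.2 ± 5.23 CPM in controls and 52.3 ± 7.50 CPM in MMS, a log2 difference of -0.23 (SE 0.11), and like Bai1 had 5 of 6 MMS pups below all controls. The difference between Bai1 and these other receptors was not tested.

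Of 24 further synaptic adhesion molecules, among them neurexins, neuroligins and cerebellins, all were tested, with 18 higher and 6 lower, where of all genes 6568 were higher and 6536 lower. The median log2 difference was 0.090, and 0.043 without MMS 2 and MMS 4. Among genes with a mean of at least 50 counts, those spanning at least 300 kb had a median log2 difference of 0.082 (369 genes). Those under 30 kb had one of -0.016 (4682 genes), and all 8702 with a known span and base composition 0.0085. These limits were chosen after the data were seen. The part of gene span in the medians of this list and of the latrophilin ligands was not tested. Cbln2, a secreted bridge between neurexins and postsynaptic receptors, had 93.1 ± 11.2 CPM in controls and 118 ± 28.4 CPM in MMS, a log2 difference of 0.35 (SE 0.14, adjusted p = 0.543, edgeR). Ptprd, a presynaptic receptor phosphatase, had 202 ± 21.2 and 251 ± 66.3 CPM and a log2 difference of 0.31 (SE 0.14, adjusted p = 0.543, edgeR). They were the 2 members of the list with an unadjusted p under 0.05, and neither passed the adjustment. Over all genes 4.68% were called higher at that threshold.

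**Figure D3:**
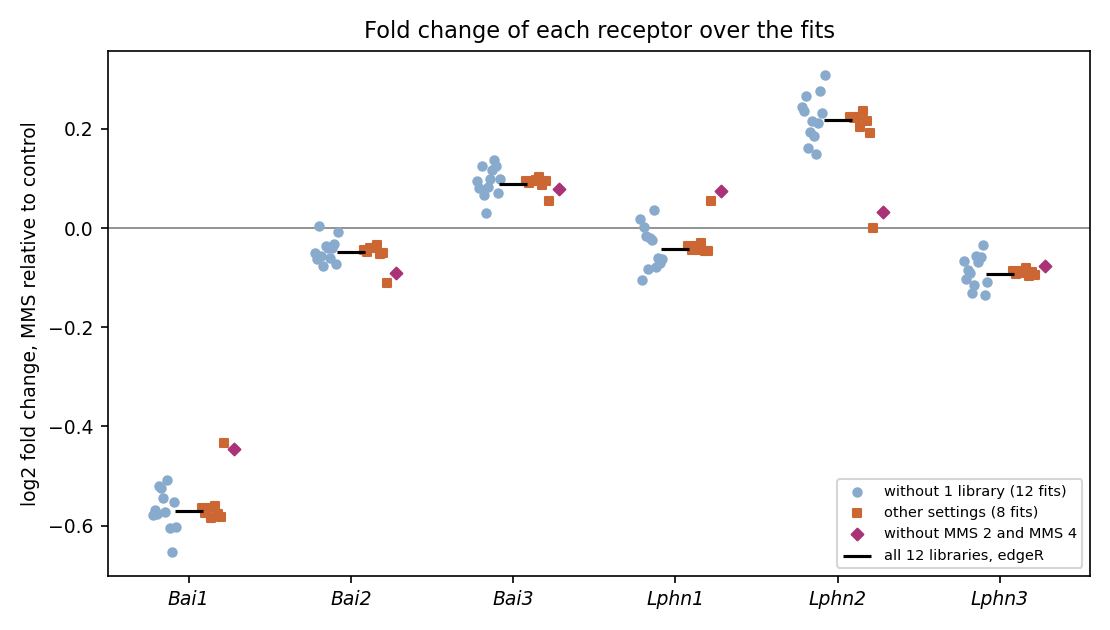
Log2 fold change of MMS over control for each receptor under the main fit and under each alternative setting, left-out libraries included. Bai1 stays between -0.65 and -0.43, and Lphn1 and Bai2 cross 0.

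How the members varied between pups of the same group was compared over the 10 libraries without MMS 2 and MMS 4, as deviations of log2 CPM from the group mean. Of 15 pairs, 11 had a positive r and 4 a negative one, with a median of 0.38. All 4 negative values were those of Bai1 with another member. Its r with Bai3 was -0.76 (exact permutation p = 0.00353, adjusted over the 15 pairs p = 0.0530), with a Spearman rank correlation of -0.76 (exact permutation p = 0.00938, adjusted p = 0.141). Without the 2 libraries farthest from the median of Bai1 it was -0.89, over all 12 libraries -0.57 (exact permutation p = 0.0276, adjusted p = 0.136), and without Control 3, the highest library in Bai1 and the lowest in Bai3, -0.68 (exact permutation p = 0.0351, adjusted p = 0.266). With Lphn3 the r was -0.73 (exact permutation p = 0.0205, adjusted p = 0.102), the rank correlation -0.67 (exact permutation p = 0.0266, adjusted p = 0.198), and the r without the 2 farthest libraries -0.65.

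Bai3 was positively related to Lphn3, with an r of 0.78 (exact permutation p = 0.0161, adjusted p = 0.102) and a rank correlation of 0.60 (exact permutation p = 0.126, adjusted p = 0.413). It was also related to Bai2, with an r of 0.71 (exact permutation p = 0.0326, adjusted p = 0.122) and a rank correlation of 0.68 (exact permutation p = 0.0396, adjusted p = 0.198). Without the 2 farthest libraries these r values were 0.64 and 0.71. No pair passed the adjusted threshold, and 4 of 15 had an unadjusted p under 0.05. All pairs share the same libraries and their scaling.

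**Figure D4:**
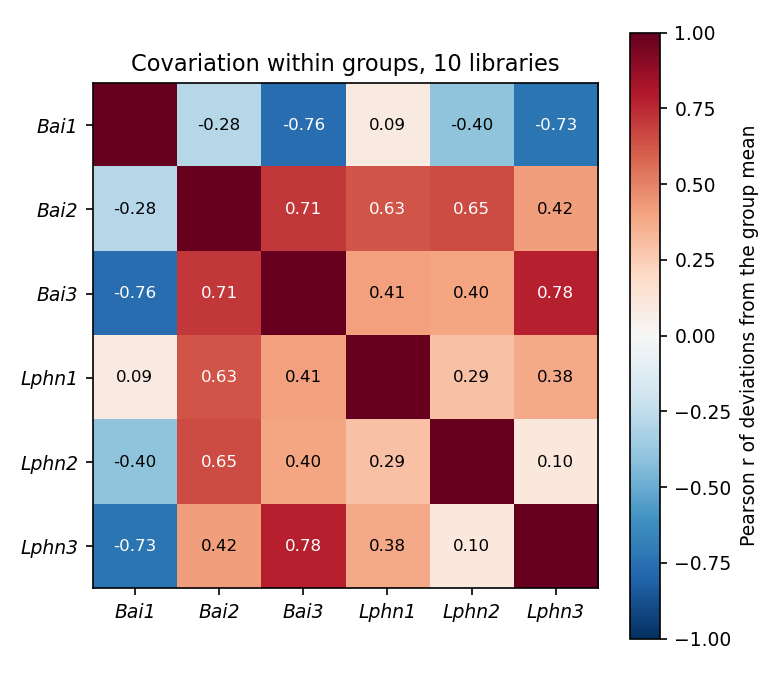
Heatmap of the Pearson r between the deviations of log2 CPM from the group mean, for each pair of members over the 10 libraries used. The r of Bai1 with Bai3 was -0.76 and that of Bai3 with Lphn3 was 0.78, and neither passed the adjustment over 15 pairs.

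The members also differ in the base composition of their transcripts and in the span of their genes. Bai1 and Bai2 transcripts hold 63.6% and 63.1% G or C bases, and those of Bai3, Lphn2 and Lphn3 hold 45.04%, 46.9% and 46.9%. The Bai3 and Lphn3 genes span 762232 and 804996 bases, against 73271 for Bai1. Over the 8702 genes ranked by their likeness to Bai1 within groups for which both properties were known, the median r was 0.003. It was 0.13 for the 2277 genes with at least 55% G or C and -0.12 for the 1956 genes under 45%. Genes of at least 300 kb had a median r of -0.16 (369 genes), and those under 30 kb one of 0.05 (4682 genes). These limits were chosen after the data were seen, and the part of base composition and gene length in the relations between members was not tested.

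The genes whose deviations were most like those of Bai1, of 9387 ranked over the 10 libraries, were Kdelr1, a receptor that returns proteins to the endoplasmic reticulum (r = 0.96), Nelfa, a subunit of the negative elongation factor (r = 0.94), BC031181 (r = 0.93), Ppp1ca, a catalytic subunit of protein phosphatase 1 (r = 0.93), and 2410002F23Rik (r = 0.93). The first 5 of so many ranks are high by selection and carry no p. Their log2 differences between the groups lay from -0.15 to 0.04, against -0.57 for Bai1. Over all 12 libraries the r of Ppp1ca was 0.32. Of the members, Lphn1 was nearest to Bai1 at rank 3953, and Lphn3 and Bai3 were among the least like it at ranks 9208 and 9253.

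Other genes lie over the receptor loci, and it is not stated whether reads were counted by strand. In GENCODE M21 the last exon of Lphn1 overlaps Gm10644 on the opposite strand and that of Lphn3 overlaps Gm16054, while Bai3 overlaps 23 annotated genes, none of them at its last exon. Reads from neighbours on the opposite strand and from the receptors cannot be told apart if strand was not used. The genes over Bai3 lie mostly on its own strand and touch none of its exons. Gm26117, a microRNA gene, overlaps an exon of Bai1 on the same strand, though not its last exon. For neighbours on the same strand the use of strand would not separate the reads.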

How the data were processed

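The 3′ mRNA libraries were sequenced on an Ion Proton and aligned to mm10 by the authors, who deposited raw counts per gene with no normalization or pooling. The counting tool, its annotation and its use of strand are not given in any source used here. Libraries were grouped by their titles. Genes were tested with edgeR 4.0.16 in R 4.3.3 (quasi-likelihood, TMM scaling, default filter with a minimum count of 10, group alone as a term), with Benjamini-Hochberg adjustment over 13104 genes and a threshold of 0.05. The steps were tested on simulated data. Levels are CPM on TMM-scaled library sizes. Level order and covariation used exact permutation tests. Members and lists were chosen with earlier results of these data known. Beyond the members, the text names list genes with an unadjusted p under 0.05, otherwise the 2 with the largest log2 difference and a mean of at least 10 counts, and the 5 genes most like Bai1 with a mean of at least 50 counts. Alternatives were other scaling, filters, tests and left-out libraries. Pups are separate animals, and every pair within a group differed beyond sampling noise.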

Additional observations from a re-analysis of the deposited data

How the results depend on the processing

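With no gene past an adjusted p of 0.05 in the comparison of groups, other settings gave 7 genes (DESeq2), 1 (no count filter), 1 (replicate number as a block), 4 (1 surrogate variable), 5 (without MMS 2 and MMS 4), and 0 to 1 when 1 library was left out, with 1 without MMS 2 and 1 without MMS 4. Limma-voom gave 0. Genes with an unadjusted p under 0.05 numbered 1190, and 2039 with no filter, 690 with 1 surrogate variable, 674 without MMS 2 and MMS 4, and 700 to 1804 when 1 library was left out, lowest without MMS 2 (700) and MMS 4 (707) and highest without MMS 5. The sign of Lphn1 turned to 0.055 with 1 surrogate variable and to 0.074 without MMS 2 and MMS 4, and lay from -0.11 to 0.037 when 1 library was left out. Bai2 lay from -0.076 to 0.0036. Bai1 lay from -0.65 to -0.51 when 1 library was left out and at -0.58 with the replicate number as a block. It was -0.43 with 1 surrogate variable and -0.44 without MMS 2 and MMS 4. Bai1 was picked by its difference in these same libraries, so its unchanged direction is no test. The cause of these changes was not tested. In level order, the controls alone gave 2.47 for Lphn1 over Lphn3, 0.12 for Lphn3 over Bai1 and 0.45 for Bai3 over Lphn2. The MMS pups alone gave 2.51, 0.62 and 0.36. Of these pairs, those without Bai1 did not pass the threshold with 6 libraries. Bai1 over Bai2 was -0.24 and Bai2 over Bai3 -0.049 in MMS alone, and Bai1 over Bai2 lay from -0.028 to 0.086 when 1 library was left out. Of the 15 pairs of members, 1 passed with library totals as the scaling (Bai1 and Bai3, r = -0.81) and 0 to 1 when 1 library was left out (1 without MMS 1, 1 without MMS 3). The r of Bai1 with Bai3 was weaker over 12 libraries (-0.57) and without Control 3 (-0.68). The r of Lphn1 with Lphn2 was -0.24 over 12 libraries, and that of Bai1 with Lphn1 lay from -0.22 to 0.33 when 1 library was left out. None of the 5 members other than Bai1 passed under 21 alternatives each. Same-numbered control and MMS libraries correlated in their deviations from the group means by -0.05 to 0.12, and only numbers 1 and 2 correlated best with their own number. Such correlations cannot show whether same-numbered pups were littermates, so their pairing stays unknown. Member values rest on 163 or more counts per library, so depth limits the rarer ligands more than the receptors.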
